A study of Homo sapiens with 12 samples.

Results

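The BCL2 family sets the balance between survival and mitochondrial cell death, and 10 of its genes were followed in A549 cells exposed to cisplatin: the effectors BAX and BAK1, the BH3-only genes BBC3, PMAIP1, BID, BIK and BCL2L11, and the anti-apoptotic genes BCL2, BCL2L1 and MCL1. They were chosen by name, and each was read from the array row that the probe table pairs with its symbol alone. Of the 10 genes, 9 had such a row, among 14232 genes tested, so all 7 pro-apoptotic members and 2 of 3 anti-apoptotic members were measured. The row for MCL1 is shared with ADAMTSL4 and ADAMTSL4-AS1, so MCL1 has no value here and the anti-apoptotic side rests on BCL2 and BCL2L1.

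A549 is an established human lung adenocarcinoma cell line, and cisplatin is a platinum drug that crosslinks DNA. Cells were either left untreated or exposed to cisplatin at its 10% inhibitory concentration, which the study calls the no-observed-effect level (NOEL), and RNA was taken after 24 h or 48 h. Each of the 4 groups (untreated 24 h, cisplatin 24 h, untreated 48 h and cisplatin 48 h) held 3 arrays, 12 in all; the study's methods describe independent experiments, while the labels do not say whether the arrays of a group came from separate cultures, so the p-values measure the spread between these arrays. Expression was measured on Affymetrix exon arrays, whose gene-level values sum up all exons of a gene and do not separate splice forms. The comparison asks how the killing and the protective side of the family stood after a dose that leaves most cells alive.

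In this family, the effectors BAX and BAK1 form pores in the outer mitochondrial membrane, through which cytochrome c leaves to activate caspases. The anti-apoptotic proteins BCL2, BCL2L1 (BCL-XL) and MCL1 bind and restrain them, and BH3-only proteins tip the balance towards death by occupying the protective proteins or by activating the effectors. BAX, BBC3 (PUMA) and PMAIP1 (NOXA) are known for transcription that DNA damage can raise.

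Values are log2 expression, so a difference of 1 is a doubling. One array, untreated 24 h replicate 3, stood apart from the rest: across all rows its mean Pearson correlation with the other 11 arrays was 0.972, against 0.987 to 0.9901 for those. The study states that a sample set of the earlier time was discarded as an outlier, without naming it; all arrays were kept here, and the differences of members that this array moved most are also given without it. The 6 epithelial markers had means over the arrays from 7.24 (EPCAM) to 13.6 (KRT8), and the measured alveolar markers, 5 of 8, from 6.64 (HOPX) to 7.68 (SFTPC), beside a median of 8.11 over all values. The measured markers of other cell types ranged from 3.79 (PTPRC) to 10.80 (CD68, a lysosomal gene as well) for leukocytes, from 3.94 (LUM) to 8.40 (COL1A1) for fibroblasts and from 5.10 (TEK) to 7.15 (VWF) for endothelial cells. The log2 of the summed epithelial marker level ranged from 14.5 to 14.7 in both the untreated and the cisplatin arrays. Over both times 1 of 6 epithelial markers (KRT19, 0.26 higher with cisplatin, unadjusted p 0.0329, limma) and 1 of 5 endothelial markers (TEK, -0.20, unadjusted p 0.0443, limma) reached an unadjusted p under 0.05, and 0 of the 5 alveolar, 6 leukocyte and 6 fibroblast markers measured did; their part in the results was not tested.

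Of the 10 genes, 8 have at least 1 promoter window in RefSeq (GRCh38.p14; 250 bases before to 50 bases after a start site), with 13 windows in all. Printed here is 1 window of each of the 3 members with an unadjusted p under 0.05 over both times (limma). Each is given 5′ to 3′ on the strand of the gene, with a named motif in capitals. The motifs, chosen with the sequences in view and searched on both strands, included the E-box (CACGTG), the GC box (GGGCGG or CCGCCC) and the TATA box (TATAAA). For BAX (chr19:48954625-48954924, plus strand) the capitals mark E-boxes. For PMAIP1 (chr18:59899746-59900045, plus strand) and BCL2L1 (chr20:31722819-31723118, minus strand) they mark GC boxes; BCL2L1 has a further window (chr20:31723914-31724213) with no GC box, the only window of a member with a TATA box.
BAX: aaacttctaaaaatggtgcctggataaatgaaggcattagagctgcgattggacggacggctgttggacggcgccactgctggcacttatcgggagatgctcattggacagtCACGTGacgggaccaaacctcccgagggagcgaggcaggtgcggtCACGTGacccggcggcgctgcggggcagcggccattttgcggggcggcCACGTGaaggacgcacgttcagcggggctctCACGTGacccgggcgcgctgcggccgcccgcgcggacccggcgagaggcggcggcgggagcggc
PMAIP1: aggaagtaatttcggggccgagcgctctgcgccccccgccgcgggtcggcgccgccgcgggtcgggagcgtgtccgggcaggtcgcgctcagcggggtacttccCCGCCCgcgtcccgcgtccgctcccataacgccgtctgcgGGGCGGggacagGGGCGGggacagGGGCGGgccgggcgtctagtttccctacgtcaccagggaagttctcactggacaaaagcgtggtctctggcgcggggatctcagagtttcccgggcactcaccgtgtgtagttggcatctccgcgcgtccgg
BCL2L1: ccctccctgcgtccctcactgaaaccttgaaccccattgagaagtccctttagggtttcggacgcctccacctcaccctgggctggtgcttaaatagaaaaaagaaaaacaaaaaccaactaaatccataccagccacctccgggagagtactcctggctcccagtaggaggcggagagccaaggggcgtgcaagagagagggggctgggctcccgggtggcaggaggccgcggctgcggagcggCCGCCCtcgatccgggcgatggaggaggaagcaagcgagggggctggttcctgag

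The BAX window holds 4 E-boxes, from 138 to 14 bases before the start site. At least 1 E-box stands in 7.26% of all 35116 windows, and 4 or more in 0.0142%, which is 5 windows. The 4 GC boxes of PMAIP1 lie from 146 to 82 bases before the start and the GC box of BCL2L1 at 5 bases before it. GC boxes stood in 9 of the 13 windows of members and in 45.0% of all windows, and the TATA box in 1 and in 11.5%. Some windows of BID overlap, so the windows are not separate cases. By gene, 6 of the 8 members with a window had a GC box in at least 1. These matches describe the letters of the windows only.

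BAX, the pore-forming effector, showed the largest difference of the 9 measured members. Its row (transcript cluster 3838067) read 11.82, 11.68 and 11.65 in the untreated arrays at 24 h and 11.69, 11.87 and 11.71 at 48 h. With cisplatin it read 11.99, 12.33 and 12.30 at 24 h and 12.02, 12.40 and 12.23 at 48 h. All 6 cisplatin arrays were above all 6 untreated arrays, with replicate 1 the lowest cisplatin array at both times. No overlap with cisplatin higher was seen for 1 of the 9 members, BAX, and for 0.218% of all genes.

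Over both times, BAX was 1.39-fold higher with cisplatin (log2 difference 0.47, SE 0.087, 95% interval 0.29 to 0.66), at an unadjusted p of 7.28e-05 and an adjusted p of 0.0808 from limma. It thus missed an adjusted p of 0.05 over all genes, a level that 0 of the 9 members and 0.0281% of all genes (4 genes) reached. BAX and PMAIP1 belong to the genes that the study itself selected on these arrays, so their direction is not independent evidence. Without untreated 24 h replicate 3 the difference was 0.46 (adjusted p 0.124, limma), and leaving out any 1 array gave 0.43 to 0.52, with adjusted p from 0.103 to 0.293. The call turned on the model: the adjusted p of BAX was 0.0033 with array weights, 0.0155 with an intensity trend and robust variances, 0.0243 among genes at or above the median level, 0.0442 after quantile normalization, 0.0479 with a replicate block and 0.0473 without the time term, but 0.0905 after median centring and 0.0801 with the mean of all rows of a gene.

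The BAX difference was close to the same size at the 2 times. It was 0.49 at 24 h (SE 0.13, unadjusted p 0.00198, adjusted p 0.912 from limma) and 0.46 at 48 h (SE 0.13, unadjusted p 0.0033, adjusted p 0.9995 from limma). The 48 h effect minus the 24 h effect was -0.034 (95% interval -0.43 to 0.36), an interval that spans most of the effect itself.

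**Figure D1:**
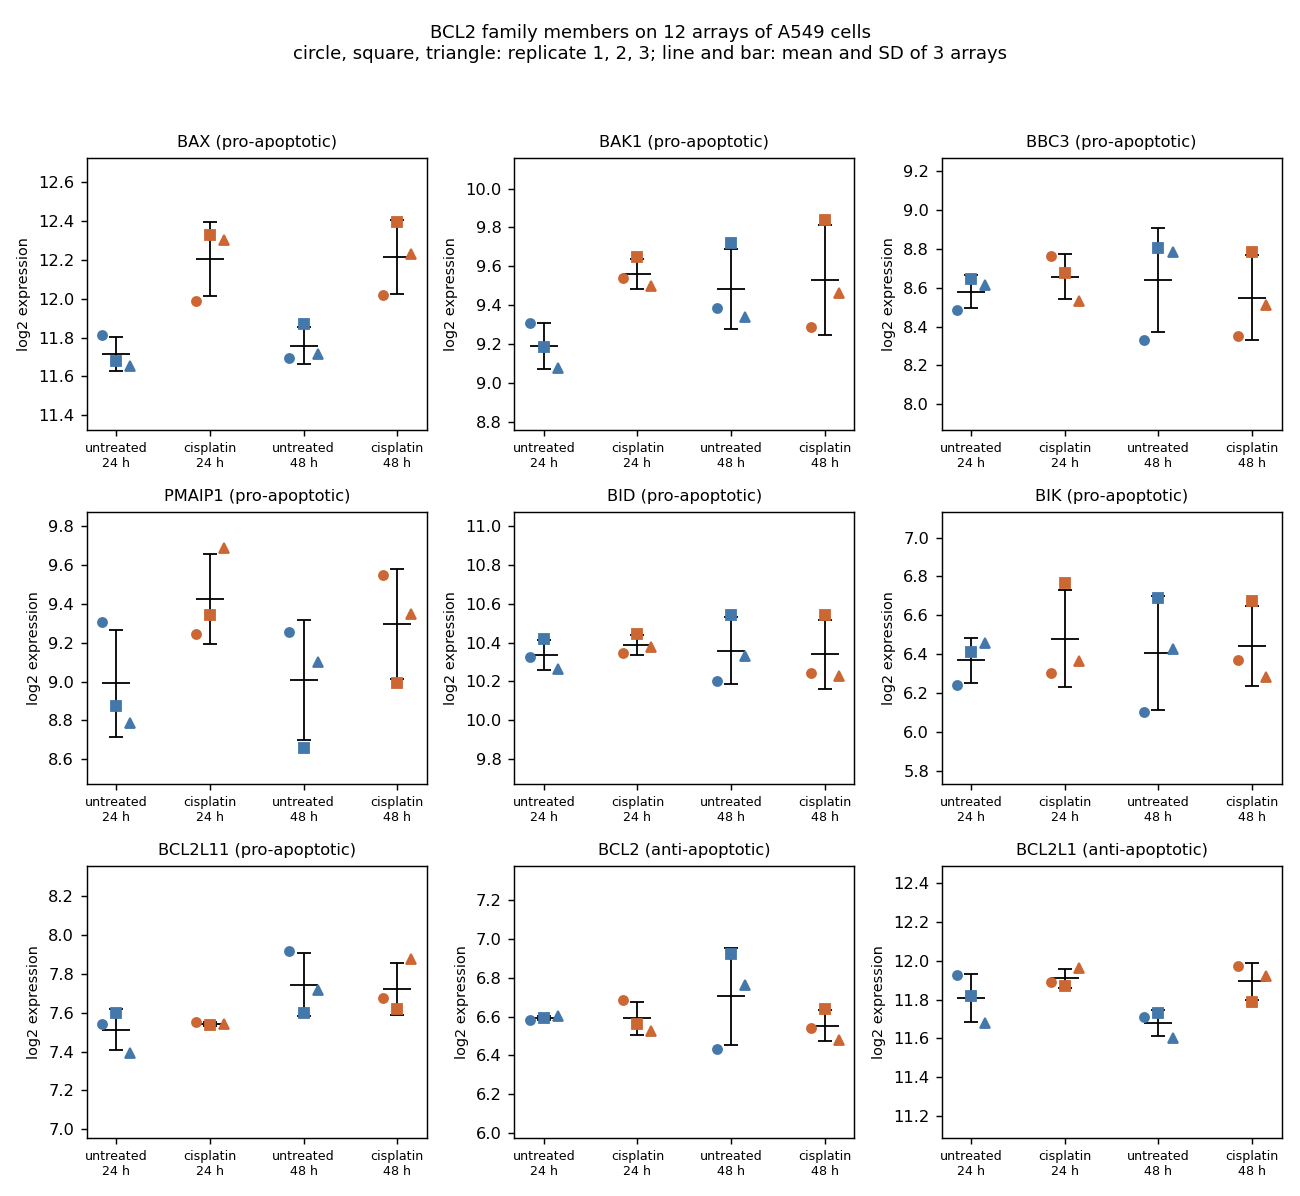
Log2 expression (vertical axes, each spanning the same range) of the 9 measured members on the 12 arrays, by group on the horizontal axes; symbols are replicates, and lines and bars the mean and SD of 3 arrays. The cisplatin arrays of BAX lie between 11.99 and 12.40, all above the untreated arrays at 11.65 to 11.87, while most other members overlap.

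BAK1, the other effector (transcript cluster 2950753), showed a smaller difference than BAX. Its untreated arrays read 9.31, 9.18 and 9.08 at 24 h and 9.39, 9.72 and 9.34 at 48 h. Its cisplatin arrays read 9.54, 9.65 and 9.50 at 24 h and 9.29, 9.84 and 9.46 at 48 h. The groups did not overlap at 24 h and overlapped at 48 h, where replicate 2 was the highest array of both treatments. The log2 difference was 0.37 at 24 h (SE 0.15, unadjusted p 0.0247, adjusted p 0.912 from limma) and 0.048 at 48 h (95% interval -0.27 to 0.36).

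Over both times BAK1 was 1.16-fold higher with cisplatin (log2 difference 0.21, 95% interval -0.022 to 0.44, unadjusted p 0.0724, adjusted p 0.991 from limma). Without untreated 24 h replicate 3, the lowest BAK1 value of all, its 24 h difference was 0.31 at an unadjusted p of 0.0701. Without cisplatin 48 h replicate 2, its 48 h difference was -0.11. The 48 h effect minus the 24 h effect was -0.32 (95% interval -0.77 to 0.12, unadjusted p 0.143 from limma), so a difference between the times was not shown; without cisplatin 48 h replicate 2 it was -0.48 at an unadjusted p of 0.0276.

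Among the BH3-only genes, PMAIP1 stood apart from the other 4. PMAIP1 (transcript cluster 3790704) encodes NOXA, which chiefly binds and opposes MCL1. Its untreated arrays read 9.31, 8.88 and 8.79 at 24 h and 9.25, 8.66 and 9.10 at 48 h. Its cisplatin arrays read 9.25, 9.34 and 9.69 at 24 h and 9.55, 8.99 and 9.35 at 48 h. At each time the groups overlapped: untreated 24 h replicate 1 lay above cisplatin 24 h replicate 1, and cisplatin 48 h replicate 2 lay below 2 of the untreated 48 h arrays.

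Over both times PMAIP1 was 1.29-fold higher with cisplatin (log2 difference 0.36, SE 0.13, 95% interval 0.079 to 0.65), at an unadjusted p of 0.0158 and an adjusted p of 0.991 from limma. The difference was 0.31 without untreated 24 h replicate 3, and 0.29 to 0.44 when any 1 array was left out, with an unadjusted p under 0.05 each of the 12 times. At 24 h it was 0.43 (SE 0.19, unadjusted p 0.0417, adjusted p 0.912 from limma), and 0.33 (unadjusted p 0.138) without untreated 24 h replicate 3. At 48 h it was 0.29 (95% interval -0.13 to 0.71), 0.12 without untreated 48 h replicate 2 and 0.44 without cisplatin 48 h replicate 2. Replicate 2 was the lowest 48 h array of both treatments. Each 48 h cisplatin array was above the untreated array of the same number, unlike replicate 1 at 24 h. The fits did not pair arrays by number.

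BBC3 encodes PUMA, which binds all the main anti-apoptotic family proteins. Its row (transcript cluster 3866435) had a mean of 8.61 ± 0.18 (SD, n = 6) untreated and 8.60 ± 0.17 (SD, n = 6) with cisplatin, and the difference over both times was -0.0078 (95% interval -0.23 to 0.21). The interval bounds the fold change between 0.855 and 1.16, which leaves out a rise as large as the 1.39-fold difference measured for BAX.

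The values of BID, which caspase 8 cuts into its active form (transcript cluster 3951927), were 10.35 ± 0.12 (SD, n = 6) untreated and 10.36 ± 0.12 (SD, n = 6) with cisplatin. BIK, which acts at the endoplasmic reticulum (transcript cluster 3947604), was at 6.39 ± 0.20 (SD, n = 6) and 6.46 ± 0.21 (SD, n = 6). Its mean of 6.42 over the 12 arrays lay within the range of the endothelial markers (5.10 to 7.15). For BCL2L11, which encodes BIM, an activator of the effectors (transcript cluster 2500275), the means were 7.63 ± 0.18 (SD, n = 6) and 7.63 ± 0.13 (SD, n = 6). The 95% intervals of these 3 differences ran from -0.16 to 0.19 for BID, from -0.17 to 0.32 for BIK and from -0.16 to 0.17 for BCL2L11, so changes of up to 1.14-fold, 1.24-fold and 1.13-fold higher were within the error of these arrays.

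BCL2L11 was the member that differed most with time. Its untreated arrays read 7.54, 7.60 and 7.39 at 24 h and 7.92, 7.60 and 7.71 at 48 h. Its cisplatin arrays read 7.55, 7.53 and 7.54 at 24 h and 7.67, 7.62 and 7.88 at 48 h, so the 2 times met near 7.60 in the untreated arrays and were apart in the cisplatin arrays. Over both treatments it was 0.21 higher at 48 h (SE 0.078, unadjusted p 0.0193, adjusted p 0.607 from limma). It was the only member at an unadjusted p under 0.05 in that direction, which 4.86% of all genes reached. Without cisplatin 48 h replicate 3 no member reached that level. The other 8 members differed by -0.071 to 0.13 between the times.

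The anti-apoptotic gene BCL2L1, which encodes BCL-XL (transcript cluster 3902489), lay on the same side as BAX rather than the opposite one. Its untreated arrays read 11.92, 11.82 and 11.68 at 24 h and 11.71, 11.73 and 11.60 at 48 h. Its cisplatin arrays read 11.89, 11.87 and 11.96 at 24 h and 11.97, 11.79 and 11.92 at 48 h. The groups overlapped at 24 h, and at 48 h all 3 cisplatin arrays were above the 3 untreated arrays.

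Over both times BCL2L1 was 1.12-fold higher with cisplatin (log2 difference 0.16, SE 0.072, 95% interval 0.0038 to 0.31, unadjusted p 0.0452, adjusted p 0.991 from limma). The difference was 0.10 at 24 h (95% interval -0.12 to 0.33; 0.037 without untreated 24 h replicate 3) and 0.21 at 48 h (95% interval -0.012 to 0.44, unadjusted p 0.0613, adjusted p 0.9995 from limma). Without untreated 24 h replicate 3 the difference over both times was 0.14 at an unadjusted p of 0.0672, and an unadjusted p under 0.05 was kept in 4 of the 12 fits that left out 1 array. The BCL2L1 row does not separate the long, protective splice form from the short, killing one.

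BCL2, the founding member (transcript cluster 3811339), read 6.58, 6.59 and 6.60 in the untreated arrays at 24 h and 6.43, 6.92 and 6.76 at 48 h. Its cisplatin arrays read 6.69, 6.56 and 6.53 at 24 h and 6.54, 6.64 and 6.48 at 48 h. The groups overlapped at both times, and the highest 2 values of all were untreated arrays at 48 h. The mean of BCL2 over the 12 arrays was 6.61, below the median of 8.11 over all values. It lay within the range of the endothelial markers (5.10 to 7.15). The difference was -0.077 over both times (95% interval -0.26 to 0.11), -0.0015 at 24 h and -0.15 at 48 h (95% interval -0.42 to 0.11), with an unadjusted p of 0.387 over both times (adjusted p 0.991, limma). The 48 h difference was -0.29 without untreated 48 h replicate 1 (unadjusted p 0.0189, adjusted p 0.849, limma) and -0.044 without untreated 48 h replicate 2.

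**Figure D2:**
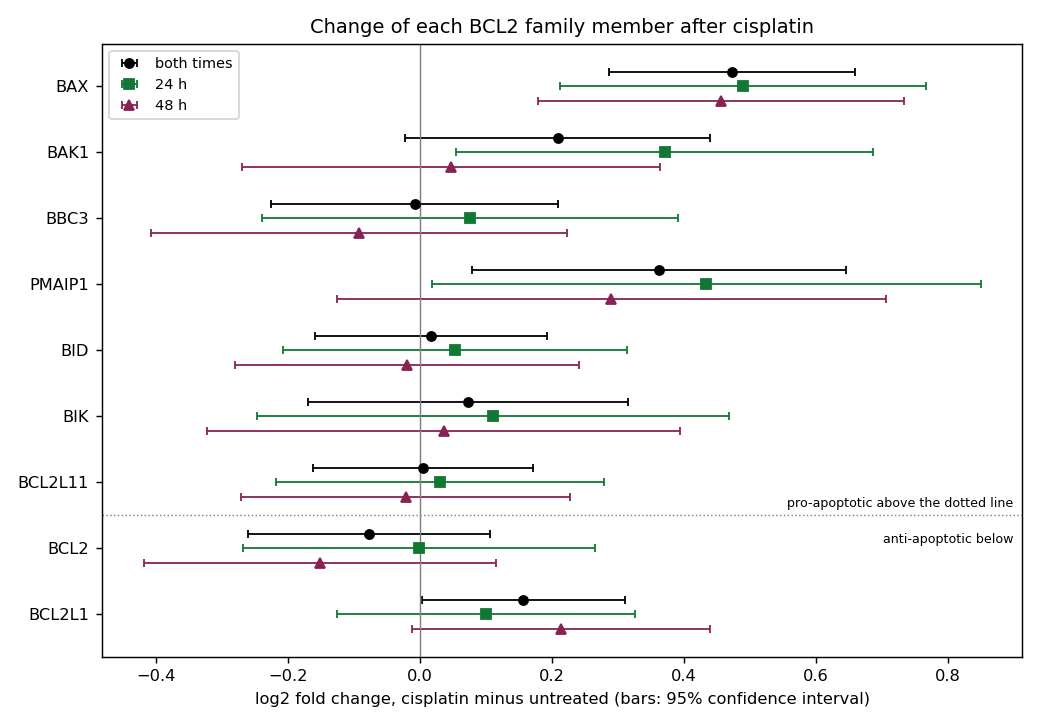
Log2 fold change with cisplatin (horizontal axis) of the 9 measured members over both times, at 24 h and at 48 h, with 95% confidence intervals from limma. The 3 intervals of BAX lie above 0, those of BBC3, BID, BIK, BCL2L11 and BCL2 all span 0.

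Counted over the 9 measured members, 3 were higher with cisplatin at an unadjusted p under 0.05 over both times (BAX, PMAIP1 and BCL2L1), a level that 1.73% of all genes reached, and 0 were lower, against 1.6% of all genes. At 24 h, 3 were higher at that level (BAX, BAK1 and PMAIP1), against 1.9% of all genes, and at 48 h 1 was (BAX), against 0.632%. Without untreated 24 h replicate 3, BAK1 and PMAIP1 no longer reached that level at 24 h, nor did BCL2L1 over both times. Groups without overlap and with cisplatin higher were seen for 2 members at 24 h (BAX and BAK1), against 5.94% of all genes, and for 2 at 48 h (BAX and BCL2L1), against 3.58%. By limma's adjusted p, 0 members passed at 24 h, where 0.00703% of all genes (1 gene) did, and 0 at 48 h, where 0% did. For the difference between the effects at the 2 times, 0 members reached an unadjusted p under 0.05, against 1.15% of all genes. The counts are of so few genes that each member is 11.1% of the whole. The members were chosen with earlier results of these data known, and the study had selected BAX and PMAIP1 on these arrays. The counts are thus a description and not a test of the family.

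Taking the sides as groups, 6 of the 7 pro-apoptotic members had a positive difference over both times, with a median of 0.074, beside a median of 0.0089 over all 14232 genes, of which 53.8% were positive. The 2 anti-apoptotic members were split, BCL2L1 positive and BCL2 negative, with a median of 0.040. At 24 h all 7 pro-apoptotic differences were positive (median 0.11, all genes 0.031, of which 57.9% were positive), and BCL2L11 was at -0.028 without untreated 24 h replicate 3. At 48 h 4 of 7 were positive (median 0.036, all genes -0.022, of which 42.2% were positive). Genes at or above the median level had higher medians than all genes: 0.046 over both times, 0.095 at 24 h and -0.0030 at 48 h. The pro-apoptotic median of 0.11 at 24 h was thus close to that of the brighter genes. The 5 BH3-only genes alone had a median of 0.017 over both times, 0.077 at 24 h and -0.019 at 48 h.

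Within each array, the log2 value of a pro-apoptotic member minus that of an anti-apoptotic member was taken relative to the mean of the 6 untreated arrays, which leaves out the differences between probe sets. BAX minus BCL2 ranged from -0.14 to 0.17 in the untreated arrays and from 0.21 to 0.69 with cisplatin (mean 0.55), so the treatments did not overlap. BAX alone already separated the treatments, and the BCL2 row was dim, with a mean of 6.61 over the 12 arrays. BAX minus BCL2L1 ranged from -0.13 to 0.15 untreated and from 0.052 to 0.61 with cisplatin (mean 0.32, SD 0.21, n = 6), where replicate 1 of both cisplatin groups lay within the untreated range. The shift of BAX was smaller against BCL2L1 than against BCL2, since BCL2L1 was itself higher and BCL2 lower with cisplatin.

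PMAIP1 minus BCL2L1 overlapped broadly, with -0.32 to 0.29 untreated and -0.052 to 0.47 with cisplatin. BAX minus BAK1, between the 2 effectors, ranged from -0.25 to 0.18 untreated and from 0.046 to 0.41 with cisplatin. The mean of the 7 pro-apoptotic members minus that of the 2 anti-apoptotic members ranged from -0.060 to 0.10 untreated and from 0.0030 to 0.24 with cisplatin. This mean differed by 0.12 over both times, 0.17 at 24 h and 0.069 at 48 h, beside an SD of 0.086 within groups. BAX (0.47) and PMAIP1 (0.36), both selected by the study on these arrays, had the largest pro-apoptotic differences over both times. BAK1 was at 0.21, and BBC3, BID, BIK and BCL2L11 from -0.0078 to 0.074. The mean of both sides thus leans on a few members. The differences within arrays are descriptions without a test, and protein levels, which set the balance in a cell, were not measured here. In bulk RNA, fewer cells that express a gene and less of its RNA per cell cannot be told apart.

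**Figure D3:**
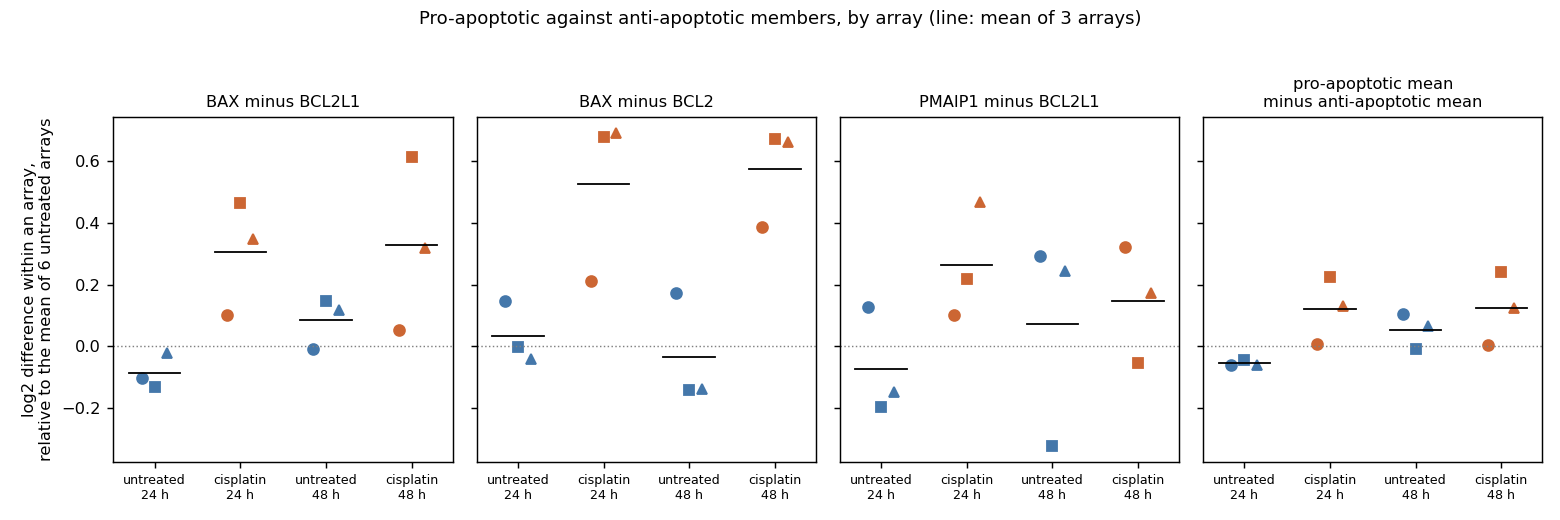
Log2 difference within each array between 2 members, or between the means of both sides, relative to the mean of the 6 untreated arrays (vertical axis), by group; symbols are replicates and lines the mean of 3 arrays. BAX minus BCL2 lies at 0.21 to 0.69 in the cisplatin arrays, above the untreated arrays, while the mean of both sides overlaps.

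Other genes of the family were measured beside these members. Of 16 listed, 12 were measured (BOK, BCL2A1, BCL2L12 and BCL2L15 had no row of their own), and their differences over both times ran from -0.13 to 0.085 with a median of 0.012, 7 positive and 5 negative; 0 reached an adjusted p of 0.05 in limma and 0 an unadjusted p under 0.05. Among the BH3-only genes of this list, BAD was at 0.084, BMF at -0.13 and HRK at -0.096. Among the protective relatives, BCL2L2 (BCL-W) was at 0.085 and BCL2L10 at 0.0073. BCL2L13, BCL2L14 and MOAP1, a partner of BAX, were at 0.080, -0.13 and -0.023. The BNIP genes, with roles in mitochondrial clearance among others, were at -0.045 for BNIP1, 0.017 for BNIP2, 0.023 for BNIP3 and 0.070 for BNIP3L. BNIP3L differed with time, being 0.33 higher at 48 h (unadjusted p 0.0013, adjusted p 0.181 from limma).

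Upstream, 26 of 33 listed regulators of the family's proteins were measured, 20 with a positive and 6 with a negative difference, beside 53.8% positive over all genes, with a median of 0.038. That median was below the 0.046 of all genes at or above the median level. The list was not split into killing and protective genes, so the count gives no direction for the balance. By limma's adjusted p 0 passed, and 1 of 26 was higher at an unadjusted p under 0.05, a level that 1.73% of all genes reached: MAPK3 (ERK1), a kinase that phosphorylates several family members, at 0.17 (SE 0.079, unadjusted p 0.0429, adjusted p 0.991). Its untreated arrays had a median of 10.61 (10.28 to 10.78) and its cisplatin arrays one of 10.69 (10.65 to 10.86), which overlap.

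Downstream of the pore, 12 of 16 listed genes of release and execution were measured, 10 with a positive and 2 with a negative difference, beside 53.8% positive over all genes, with a median of 0.041. Genes at or above the median level had a median of 0.046. The list also holds inhibitors of execution, so the count gives no direction. By limma's adjusted p 0 passed, and 1 of 12 was higher at an unadjusted p under 0.05, against 1.73% of all genes. This was APAF1, the scaffold on which cytochrome c assembles the apoptosome, 1.21-fold higher (log2 difference 0.28, SE 0.094, unadjusted p 0.0101, adjusted p 0.991). Its untreated arrays had a median of 8.36 (8.12 to 8.48) and its cisplatin arrays one of 8.58 (8.40 to 8.81), which overlap. At 24 h 10 of the 12 were positive, beside 57.9% of all genes. Their median was then 0.11, beside 0.095 for genes at or above the median level. CASP9, the caspase that the apoptosome activates, was then at 0.32 (unadjusted p 0.0166, adjusted p 0.912, limma) and APAF1 at 0.30 (unadjusted p 0.0487, limma), a level that 1.9% of all genes reached in that direction. Over both times CASP9 was at 0.13 (unadjusted p 0.195, limma). At 48 h 6 were positive and 6 negative, beside 42.2% positive over all genes. CYCS, which encodes cytochrome c, was then at -0.28 (unadjusted p 0.0243, adjusted p 0.9995, limma), a level that 0.52% of all genes reached in that direction.

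**Figure D4:**
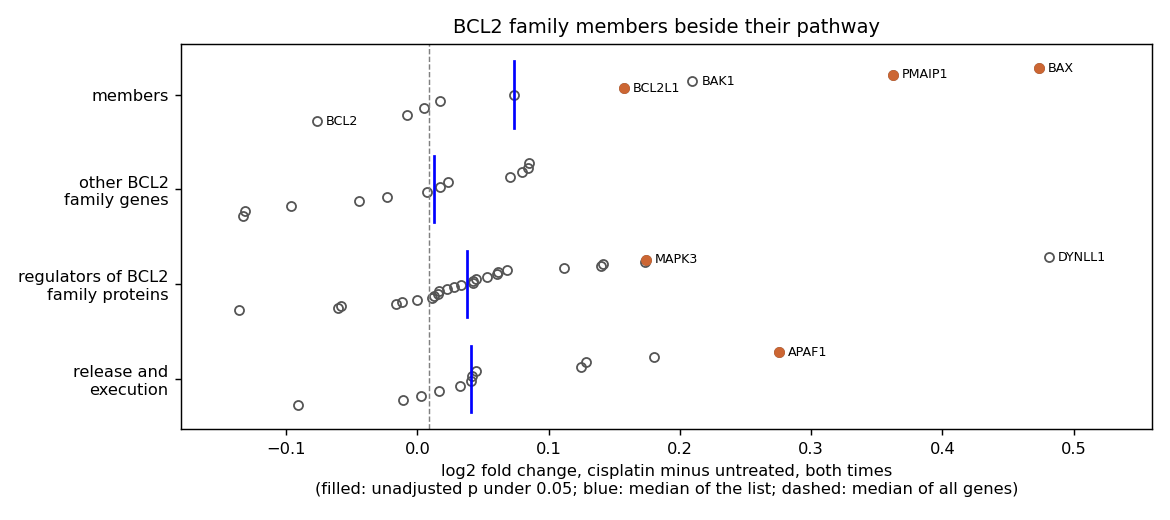
Log2 fold change with cisplatin over both times (horizontal axis) of the measured genes of the 4 lists (rows); filled points have an unadjusted p under 0.05 in limma, blue lines are list medians and the dashed line the median of all genes. BAX at 0.47 and PMAIP1 at 0.36 lie beyond all 12 other measured genes of the family, which reach 0.085, and DYNLL1, at 0.48 with a 95% interval of -0.30 to 1.26, is the regulator farthest to the right. The lowest DYNLL1 value, 8.28, came from 1 untreated 24 h array, in a group with a median of 10.75.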

How the data were processed

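Total RNA of A549 cells was hybridised by the study to Affymetrix exon arrays, 3 in each of 4 groups. Per the labels, the authors used Affymetrix Power Tools, Affymetrix Expression Console and RMA, and the deposited values are log2 expression for 22011 transcript clusters; there are no counts, and precision is limited by the 12 arrays. The genome build of the annotation was not given in the sources used here.

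Clusters were paired with genes by the probe table: 14432 had 1 symbol, 2408 several (left out, MCL1 with them) and 5171 none. The brightest cluster of each gene over 12 arrays was used. R 4.3.3 and limma 3.58.1 were applied, with treatment and time as terms for the pooled and time contrasts and with 4 groups for the effects at each time and their difference; p-values were adjusted by Benjamini-Hochberg over 14232 genes. The procedure was tested on simulated data. Members, gene lists and alternatives were chosen with earlier results of these data known. Genes named are all members, all measured relatives, genes of other lists, markers included, at an unadjusted p under 0.05 over both times, and the 3 genes closest to BAX, PMAIP1 and BCL2L1 by correlation; other names (markers, DYNLL1, CASP9 and CYCS) were chosen after their values were seen. For MCL1 no such genes could be given.

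The alternatives left out each array, applied quantile normalization, median centring, array weights (from the model with treatment and time), an intensity trend with robust variances, the replicate number as a block, a filter at the median level, the mean of all clusters of a gene, no time term, or a threshold of 0.005. The siRNA screen and RT-qPCR were not analysed here, and some listed genes and 1 motif are not reported here.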

Additional observations from a re-analysis of the deposited data

How the results depend on the processing

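The differences of BAX, PMAIP1, BCL2L1 and BAK1 over both times kept their sign under every alternative run; the values of BAX that came to pass an adjusted p of 0.05 stand beside it in the report. Over both times, 4 genes and 0 members passed an adjusted p of 0.05 in limma. These counts were 12 and 1 with quantile normalization, 55 and 1 with array weights, 14 and 1 with an intensity trend and robust variances, 17 and 1 with genes at or above the median level, and 13 and 1 without a time term. With a replicate block they were 17 and 1. Same-numbered arrays did not all deviate together (correlation of deviations -0.39 to 0.60, over 0.1 in 4 of 6 pairs). For replicates 1, 2 and 3 it was 0.31, 0.60 and 0.17 at 48 h, but -0.34, 0.21 and -0.39 at 24 h. Unlike numbers reached 0.48 and 0.37 at 24 h (untreated replicates 1 and 3 with cisplatin replicates 3 and 1) and 0.26 at 48 h. Arrays were treated as unpaired, and whether some share an experiment under other numbers was not tested. The 3 members at an unadjusted p under 0.05 over both times became 1 at a threshold of 0.005 and 5 with array weights. At 24 h, 1 gene passed, and 2 with array weights, with the trend and with the median filter; the 3 members at an unadjusted p under 0.05 became 1 with quantile normalization. At 48 h, 0 genes passed, and 1 with quantile normalization, 31 with array weights, 1 with the trend and 1 with the median filter; the 1 member at an unadjusted p under 0.05 became 2 with quantile normalization, median centring, the trend and the median filter, and 4 with array weights. Between the times, 19 genes passed, and 9 with median centring, 312 with array weights, 30 with the trend and 87 with the replicate block; the 1 member at an unadjusted p under 0.05 became 0 with the median filter, which leaves out dim genes. Why the counts moved was not tested. Leaving out 1 array gave 3 to 18 genes over both times, with 18 without untreated 48 h replicate 1; 0 to 3 genes and 1 to 3 members at 24 h; 0 to 1 genes and 1 to 3 members at 48 h, with 3 without cisplatin 48 h replicate 2; 0 to 1 genes and 0 to 1 members for the difference between effects; and 9 to 25 genes and 0 to 1 members between times. For a chosen set of members and contrasts, 20 values of single members under an alternative turned sign, 6 came to pass (all BAX) and 376 did neither. BID, 0.017 over both times, was -0.038 with quantile normalization and -0.023 with array weights; BCL2, -0.0015 at 24 h, was 0.074 with quantile normalization. When 1 array was left out, BBC3 over both times ranged from -0.067 to 0.046, BID from -0.024 to 0.062, BCL2L11 from -0.026 to 0.046, BCL2 at 24 h from -0.049 to 0.031 and BAK1 at 48 h from -0.11 to 0.17.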

Other observations

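Across the 12 arrays, the genes whose log2 values ran most like BAX were EPS8L2 (Pearson r 0.915), CDKN1A (0.912), which encodes the cell cycle inhibitor p21, and STOM (0.907). The r values without untreated 24 h replicate 3 were 0.946, 0.904 and 0.893. With cisplatin, CDKN1A was higher by 1.14 on the log2 scale over both times and passed the test (adjusted p 0.000254, limma), while EPS8L2 at 0.41 (adjusted p 0.223) and STOM at 0.39 (adjusted p 0.0767) did not. Genes picked for likeness to BAX, which separated the treatments on these arrays, are bound to differ with cisplatin in the same direction. The study also lists CDKN1A, EPS8L2 and STOM among its higher genes on these arrays, so these differences are not independent evidence.

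The genes most like PMAIP1 were CEP95 (r 0.944), SLC30A4 (0.940) and RRM2B (0.939), a ribonucleotide reductase subunit, which was 0.41 higher with cisplatin (adjusted p 0.698, limma). Those most like BCL2L1 were RPP30 (r 0.911), MTCH2 (0.882), the mitochondrial receptor of truncated BID, and HRH1 (0.880), with differences of 0.12 to 0.16 that did not pass the test. All arrays share the treatment and time effects, so these correlations are descriptions over arrays of 4 groups and not tests of a link between genes. The differences of these neighbours follow in part from the same choice, and RRM2B is in the study's list as well.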
